A study of Mus musculus with 12 samples.

Results

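The genes described here are the 10 members of the mouse insulin-like growth factor (IGF) system taken by their symbols: the ligands Igf1 and Igf2, the receptors Igf1r and Igf2r, and the binding proteins Igfbp2, Igfbp3, Igfbp4, Igfbp5, Igfbp6 and Igfbp7. Their Ensembl identifiers were found in the table of 46983 genes, and all 10 members were among the 18023 genes that were tested. RNA was sequenced from C2C12, a mouse myoblast line, in 4 groups of 3 libraries. WT_0d and WT_5d are the wild-type cells, named PbIP after the PiggyBac vector PB-IP, on 0d and 5d of culture towards myotubes. PPARγ/+_0d and PPARγ/+_5d are C2C12 cells on the same days that carry the sense PPARγ coding sequence in PB-IP, and all groups grew in medium with fetal bovine serum. The PPARγ/+ cells were selected with puromycin after transfection. The sources used here name neither the promoter of the construct nor whether several clones were pooled, and the series text speaks of inducible cells without an inducing agent. The libraries of a group are called biological replicates, with no statement on separate transfections, so a p-value measures the spread between these libraries.

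IGF1 and IGF2 are secreted peptides that bind the IGF1 receptor, a tyrosine kinase at the cell surface, and thereby drive growth and survival of cells. In myoblasts the ligands are made by the cells themselves during differentiation and act on the same cells. IGF2R carries IGF2 into lysosomes and has no kinase. The binding proteins hold the ligands outside the cell, where they may limit, prolong or localize their action, and proteases such as PAPP-A and HTRA1 cleave them and free the ligand. IGFBP7 binds IGFs only weakly and is placed in the family by its sequence.

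The libraries held at least 10836870 and up to 15133548 fragments on the 21320 genes whose values gave whole fragments, which is a part of each library. Pparg, the gene of the construct, lay between 3.12 and 7.56 FPKM in the WT libraries and between 28.0 and 92.7 in the PPARγ/+ libraries, as the labels say. FPKM values are fragments of a gene scaled by transcript length and by how many fragments a library had mapped. The marker genes of skeletal muscle summed to between 1473 and 6740 FPKM in WT_5d and to between 1528 and 1803 in PPARγ/+_5d. Of the 14 markers, 13 and 11 reached 1 FPKM in at least 1 library of these groups. Of the 13 muscle markers tested, none was called between the cell types on 5d by the rule given below, beside 1.10% of all genes. Their median log2 difference was -1.03. WT_5d replicate 3 stood apart, with the sum of 1473 against 5059 and 6740 in the other WT libraries on 5d. For several differences of members the value without it is given too, but not for single genes outside the members. WT_0d replicate 2 had the highest muscle sum on 0d, 408 FPKM against 162 and 218. The adipocyte markers summed to at most 16.1 FPKM in the WT libraries and to 34.4, 41.9 and 97.4 in PPARγ/+_5d replicates 1, 2 and 3, where 7 of the 10 markers reached 1 FPKM. Adipoq, the adipocyte hormone adiponectin, was at most 0.0313 FPKM in any WT library. The proliferation markers summed to between 296 and 461 FPKM on 0d and to between 46.7 and 61.0 on 5d. Among all markers the day difference depended on the cell type for Myf5, an early myogenic factor, which fell from 12.02 ± 0.99 to 4.43 ± 1.33 FPKM in WT cells and was 3.96 ± 0.30 and 6.78 ± 1.51 in PPARγ/+ cells (SD, n = 3). Its interaction was 2.20 on the log2 scale (limma adjusted p = 0.00844). Myf5 was the 1 gene called for the interaction among 13 muscle markers tested, beside 0.760% of all genes. No adipocyte or proliferation marker was called for it.

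Differences between groups were fitted with limma on log2(FPKM + 0.1), a scale that understates the change of genes near 0. Calls needed a fold change of 2 or more. Between the days they also needed an unadjusted p of 0.05 or less, and between the cell types an adjusted p of 0.05 or less. From 0d to 5d in WT cells, Igf1, Igf2 and Igfbp4 rose and Igfbp2 fell, which are 4 of the 10 members, beside 16.5% of all genes tested. In PPARγ/+ cells Igf1, Igf2, Igfbp3, Igfbp4 and Igfbp5 rose, which are 5 of the 10 members, beside 15.2% of all genes. On 0d, the PPARγ/+ cells had less Igfbp2 and Igfbp5 than the WT cells, which are 2 of the 10 members, beside 1.96% of all genes. On 5d, Igfbp3 was higher in PPARγ/+ cells, which is 1 of the 10 members, beside 1.10% of all genes. The interaction, which is the day difference of PPARγ/+ cells less that of WT cells, was called at an adjusted p of 0.05 or less for Igfbp2 and Igfbp3, which are 2 of the 10 members, beside 0.760% of all genes. From 0d to 5d the members had a median log2 difference of 0.57 for WT and 1.96 for PPARγ/+ cells, where all genes had -0.08 and -0.10. It was -0.03 on 0d and -0.19 on 5d for PPARγ/+ against WT, where all genes had 0.02 on both days. The interaction had a median of -0.03 over the members and was positive for 5 of the 10, where all genes had -0.01. The 2 day medians therefore do not show a larger rise of the members as a set in PPARγ/+ cells. The comparisons on the days and the interaction use the same libraries, so they are not independent of each other. The members were chosen with earlier results of these data known, and the paper already lists Igfbp2. The counts beside all genes are therefore descriptions and no measure of enrichment.

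**Figure D1:**
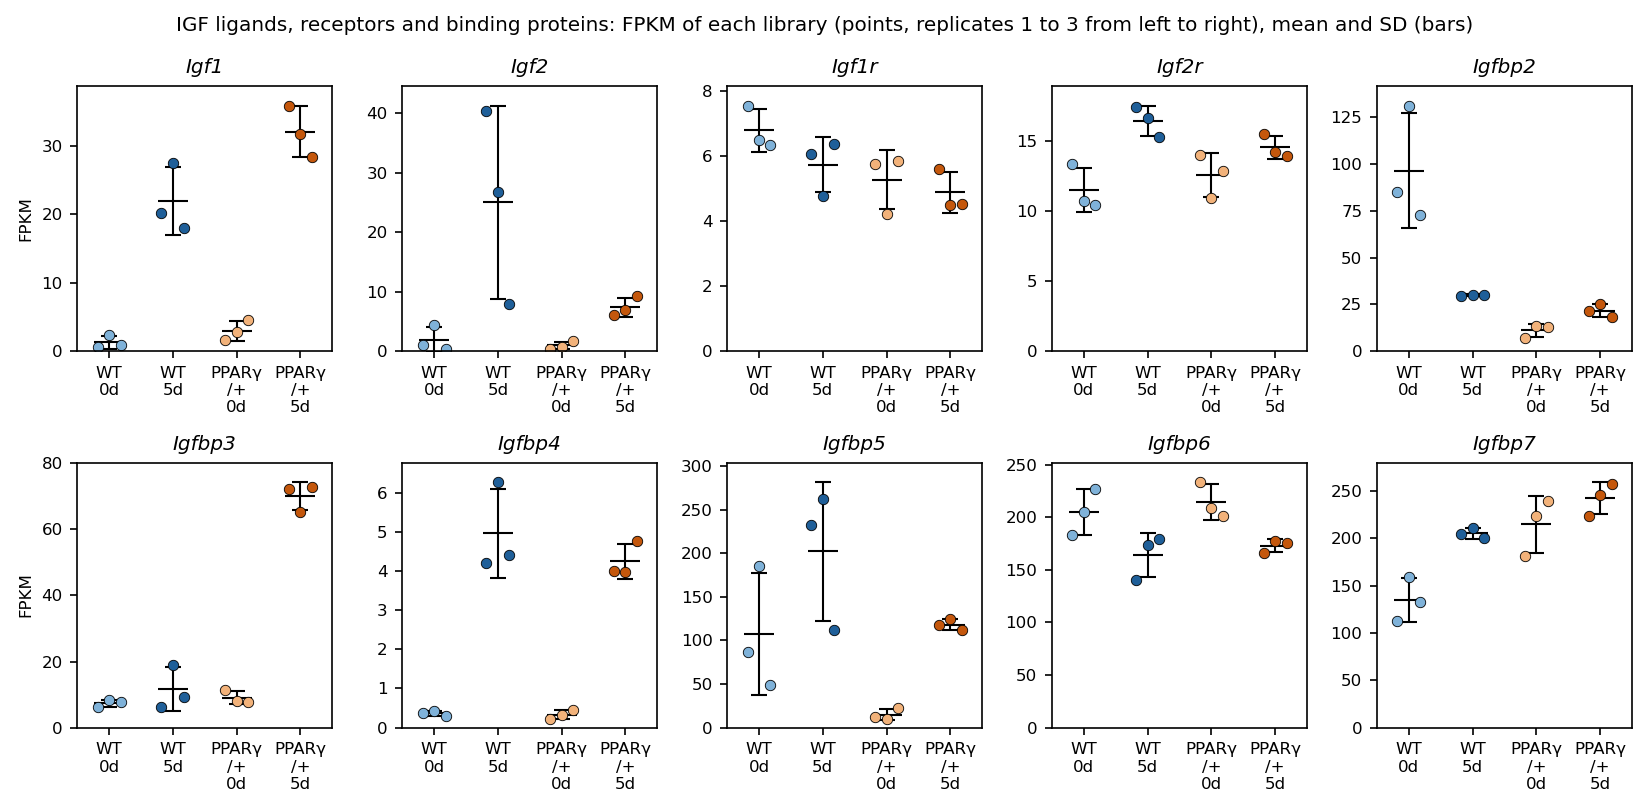
FPKM (linear y axes that start at 0) of the 10 members in each of the 12 libraries, grouped on the x axes by cell type and day. Points are libraries, replicates 1 to 3 from left to right, and bars are the mean and SD of 3 libraries. Igf1 was above 18 FPKM in every library on 5d and below 5 in every library on 0d, and Igfbp3 was above 65 FPKM only in the 3 libraries of PPARγ/+_5d.

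Igf1, which codes for the ligand with the highest affinity for IGF1R, had 0.573, 2.40 and 0.903 FPKM in WT_0d replicates 1, 2 and 3 and 20.2, 27.4 and 18.0 FPKM in WT_5d. In PPARγ/+ cells the levels were 1.63, 2.85 and 4.53 FPKM on 0d and 35.8, 31.7 and 28.4 FPKM on 5d. Every library on 5d lay above every library on 0d, and the 3 PPARγ/+ libraries on 5d lay above the 3 WT libraries on 5d. The log2 difference from 0d to 5d was 4.18 ± 0.47 in WT cells (SE, adjusted p = 0.00129) and 3.48 ± 0.33 in PPARγ/+ cells (adjusted p = 2.81e-04). Although the groups did not overlap on 5d, PPARγ/+ against WT gave 0.56 ± 0.44 on that day (adjusted p = 0.595) and was not called. On 0d the difference was 1.27 ± 0.44 (adjusted p = 0.122), where WT_0d replicate 2 at 2.40 FPKM lay within the PPARγ/+ range. Without that library it was 1.81 ± 0.35 (adjusted p = 0.0269). The change over the days was not shown to differ between the cell types, since the interaction was -0.71 ± 0.62 (adjusted p = 0.717).

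Igf2, the fetal ligand that myoblasts switch on as they differentiate, had 0.9998, 4.36 and 0.385 FPKM in WT_0d and 40.3, 26.8 and 7.99 FPKM in WT_5d. The PPARγ/+ cells had 0.387, 0.771 and 1.69 FPKM on 0d and 6.05, 6.92 and 9.20 FPKM on 5d. The days did not overlap in either cell type, and WT_5d replicate 3 fell among the PPARγ/+ libraries, while the other WT libraries on 5d lay above all of them. The day difference was 3.95 ± 0.92 in WT cells (adjusted p = 0.0176) and 3.02 ± 0.45 in PPARγ/+ cells (adjusted p = 0.00177) on the log2 scale. Without WT_5d replicate 3 the WT difference was 4.63 ± 0.94 (adjusted p = 0.0165). On 5d the mean was 25.1 ± 16.3 FPKM in WT and 7.39 ± 1.63 in PPARγ/+ cells (SD, n = 3), a log2 difference of -1.49 ± 0.78 that was not called (adjusted p = 0.402). Without WT_5d replicate 3 it was -2.16 ± 0.78 and was still not called (adjusted p = 0.101). The interaction was -0.94 ± 1.11 (adjusted p = 0.801). In the annotation used for positions, Igf2 shares 3596 exonic bases (62.8% of its own) with Gm49394, a protein-coding gene on the same strand that was not analysed here, and 98 bases with Igf2os on the other strand, so fragments from those bases cannot be told apart by position.

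The spread of Igf2 between libraries of one group ran alongside that of the muscle markers. In each of the 4 groups the order of the 3 libraries by Igf2 was their order by the summed muscle markers, with the highest of both in WT_0d replicate 2, WT_5d replicate 1, PPARγ/+_0d replicate 3 and PPARγ/+_5d replicate 3. Igf1 kept that order in PPARγ/+_0d, but in PPARγ/+_5d its order was the opposite one. This is a description of 12 libraries that share groups, and the part of the muscle markers in the Igf2 levels was not tested. In RNA from whole cultures, fewer cells of a type and less RNA per cell cannot be told apart.

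**Figure D2:**
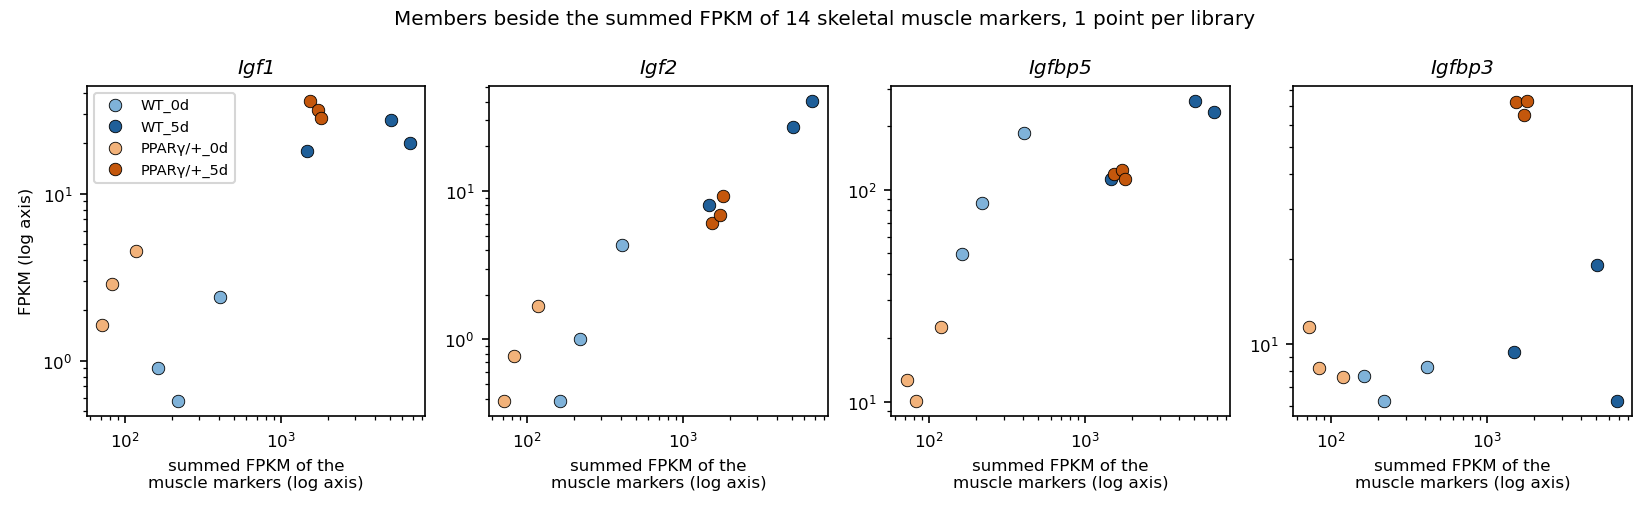
FPKM of Igf1, Igf2, Igfbp5 and Igfbp3 (y axes, log scale) against the summed FPKM of 14 skeletal muscle markers (x axes, log scale), with 1 point per library coloured by group. Igf2 followed the muscle sum within each group, WT_5d replicate 3 lay among the PPARγ/+_5d libraries for Igf2 and Igfbp5, and the 3 PPARγ/+_5d libraries stood above all others for Igfbp3.

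The receptors moved little. Igf1r, the kinase through which both ligands signal, had 7.56, 6.51 and 6.33 FPKM in WT_0d, 6.07, 4.78 and 6.37 in WT_5d, 5.76, 4.23 and 5.86 in PPARγ/+_0d and 5.61, 4.51 and 4.54 in PPARγ/+_5d. The days overlapped in both cell types, and the cell types did not overlap on 0d, where WT was higher. The log2 difference on 0d was -0.37 ± 0.15 and was not called (adjusted p = 0.19). The day differences were -0.25 ± 0.14 in WT cells (adjusted p = 0.209) and -0.10 ± 0.15 in PPARγ/+ cells (adjusted p = 0.616), the second of which turned positive under median-ratio scaling and quantile normalization. Igf2r, the receptor that clears IGF2, had 13.4, 10.8 and 10.5 FPKM in WT_0d and 17.4, 16.7 and 15.3 FPKM in WT_5d, without overlap. The WT difference was 0.52 ± 0.12 (adjusted p = 0.0146), below the 2-fold limit. In PPARγ/+ cells Igf2r had 14.003, 10.9 and 12.9 FPKM on 0d and 15.5, 14.3 and 13.96 on 5d, where the lowest library on 5d lay just under the highest on 0d, and the difference was 0.21 ± 0.10 (adjusted p = 0.122). Neither receptor differed between the cell types on 5d by a difference that passed the test, with -0.22 ± 0.15 for Igf1r and -0.17 ± 0.11 for Igf2r.

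Igfbp2 and Igfbp5 are neighbours on chromosome 1 that are transcribed towards each other, Igfbp2 from the plus strand at chr1:72824503-72852474 and Igfbp5 from the minus strand at chr1:72857932-72874884. Igfbp3 lies on the minus strand of chromosome 11 at chr11:7206086-7213923 (all GRCm38). Igfbp2, Igfbp3 and Igfbp5 are the members that were called between the cell types on 0d or 5d. The 250 bases before their transcription start are shown here, 5′ to 3′ on the strand of the gene, from RefSeq on GRCm38.p6. Capitals mark every match to a searched motif on either strand. The RefSeq starts of Igfbp2 and Igfbp5 are not the ends of the gene positions given above, and the Igfbp5 window reaches into its gene position. The windows are chr1:72824230-72824479 (plus strand) for Igfbp2, chr11:7213924-7214173 (minus strand) for Igfbp3 and chr1:72874866-72875115 (minus strand) for Igfbp5.
Igfbp2: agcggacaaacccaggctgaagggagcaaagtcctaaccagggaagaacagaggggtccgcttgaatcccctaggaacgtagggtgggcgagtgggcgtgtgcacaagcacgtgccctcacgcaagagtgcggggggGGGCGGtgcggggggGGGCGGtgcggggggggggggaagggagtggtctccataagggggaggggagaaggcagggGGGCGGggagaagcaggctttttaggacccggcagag
Igfbp3: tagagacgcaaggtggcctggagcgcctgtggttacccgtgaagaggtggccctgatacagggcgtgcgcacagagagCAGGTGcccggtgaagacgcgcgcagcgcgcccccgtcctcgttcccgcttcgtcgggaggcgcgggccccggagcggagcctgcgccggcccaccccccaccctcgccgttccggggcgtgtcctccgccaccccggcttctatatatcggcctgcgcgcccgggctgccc
Igfbp5: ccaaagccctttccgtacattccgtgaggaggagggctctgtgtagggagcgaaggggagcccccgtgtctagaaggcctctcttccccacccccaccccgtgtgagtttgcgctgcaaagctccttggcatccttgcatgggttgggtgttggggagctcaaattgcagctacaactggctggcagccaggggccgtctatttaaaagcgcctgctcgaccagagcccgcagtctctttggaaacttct
The search took 6 motifs. The E-box CAGCTG is a core bound by muscle bHLH factors, and a second E-box was written CACCTG. The TATA box was written TATAAA, and the GC box, which binds SP1, was written GGGCGG. The half-site of nuclear receptors was written AGGTCA. The direct repeat that PPARγ binds together with RXR was written AGGTCANAGGTCA, and it holds that half-site at both ends. The Igfbp2 window held 3 GC boxes, whose first bases lay at -113, -98 and -37 from the start. The Igfbp3 window held 1 E-box of the second kind, read on the other strand, starting at base -172 from the start. The Igfbp5 window and that of a second annotated start of Igfbp2 held no match. All 10 members had a window, 14 windows in all. The GC box was found in 5 of the members (Igf2, Igf1r, Igf2r, Igfbp2 and Igfbp7), and 35.4% of the 27025 genes with windows of that length held it in at least 1 of them. The half-site was found in 4 members (Igf1, Igf2, Igf1r and Igf2r), where 15.8% of all genes held it, and in Igf1 it shared bases with the muscle E-box. The muscle E-box was in 1 member, Igf1 (14.7% of all genes), and the second E-box in 2, Igf2r and Igfbp3 (19.4%). The letters of the TATA box were in 2, Igfbp4 and Igfbp6 (14.3%). They began at base -28 in Igfbp4, and in Igfbp6 they were read on the other strand from base -148. The direct repeat was in none of the members' windows and in 0.0407% of all genes. A match is a run of letters in these windows and no measure of binding.

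Igfbp2, whose protein binds both ligands, was the member whose direction over the days turned with the cell type. WT_0d replicates 1, 2 and 3 had 85.0, 131 and 73.0 FPKM, and WT_5d had 29.4, 30.0 and 30.2 FPKM. PPARγ/+ cells had 7.28, 13.6 and 12.7 FPKM on 0d and 21.4, 25.0 and 18.0 FPKM on 5d. The 4 groups did not overlap, and WT_0d was the highest of them and PPARγ/+_0d the lowest. Igfbp2 fell by 1.64 ± 0.21 on the log2 scale in WT cells (adjusted p = 0.00196). The PPARγ/+ difference was 0.97 ± 0.25 (adjusted p = 0.0164), just under the 2-fold limit. It passed that limit under median-ratio scaling (1.10), under quantile normalization (1.12) and without PPARγ/+_0d replicate 2 (1.14), PPARγ/+_0d replicate 3 (1.09) or PPARγ/+_5d replicate 3 (1.09). The interaction was 2.61 ± 0.35 (adjusted p = 0.011). PPARγ/+ against WT was -3.10 ± 0.25 on 0d (adjusted p = 1.29e-04), and on 5d it was -0.49 ± 0.25 and not called (adjusted p = 0.38).

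Igfbp5, the main binding protein that differentiating myoblasts secrete, had 86.7, 185 and 49.5 FPKM in WT_0d and 232, 262 and 112 FPKM in WT_5d. PPARγ/+ cells had 12.6, 10.1 and 22.4 FPKM on 0d and 118, 124 and 112 FPKM on 5d. The WT days overlapped, since WT_0d replicate 2 lay above WT_5d replicate 3, whereas the PPARγ/+ days lay far apart. On 0d every PPARγ/+ library was below every WT library, and on 5d the PPARγ/+ libraries lay next to WT_5d replicate 3. The difference on 0d was -2.70 ± 0.46 on the log2 scale (adjusted p = 0.0077), a call that was lost with the 6 libraries of 0d alone in the fit (adjusted p = 0.0547). The rise in PPARγ/+ cells was 3.05 ± 0.27 (adjusted p = 2.17e-04). In WT cells the difference of 1.03 ± 0.53 was not called (adjusted p = 0.178), since its unadjusted p exceeded 0.05. It was called without WT_5d replicate 3, at 1.41 ± 0.55 (adjusted p = 0.102), and without WT_0d replicate 2, at 1.53 ± 0.45 (adjusted p = 0.0579). These are the libraries with the lowest and the highest muscle sum of their group. A limma fit with the replicate number as a block also called it (adjusted p = 0.026), and it stayed uncalled in 11 of 15 alternatives. The interaction, 2.01 ± 0.64, did not pass the test (adjusted p = 0.226), so the changes were not shown to differ between the cell types. On 5d the difference was -0.69 ± 0.46 (adjusted p = 0.518), and -1.06 ± 0.46 without WT_5d replicate 3 (adjusted p = 0.165). Igfbp2 and Igfbp5 were lower on 0d in every PPARγ/+ library than in any WT library, and the muscle sum there was 71.7 to 118 FPKM against 162 to 408 in WT cells. The part of the muscle markers in these differences was not tested.

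Igfbp3, the main carrier of IGFs in blood and a secreted protein of many mesenchymal cells, was high in 1 group. It had 6.26, 8.25 and 7.67 FPKM in WT_0d, 6.26, 19.1 and 9.36 in WT_5d and 11.5, 8.20 and 7.62 in PPARγ/+_0d. The PPARγ/+_5d libraries had 72.1, 65.2 and 72.9 FPKM, which rest on 4240 to 4678 fragments, and the lowest of them was far above the highest of all other libraries, 19.1 FPKM in WT_5d replicate 2. The 3 remaining groups overlapped one another. The rise in PPARγ/+ cells was 2.95 ± 0.15 (adjusted p = 3.14e-05), and WT cells had 0.49 ± 0.39 (adjusted p = 0.362). On 5d PPARγ/+ against WT was 2.74 ± 0.31 (adjusted p = 0.00202), and 2.67 ± 0.36 without WT_5d replicate 3 (adjusted p = 0.00159). With the 6 libraries of 5d alone in the fit this call was lost (adjusted p = 0.0798). The interaction was 2.46 ± 0.44 (adjusted p = 0.0337). The call of the interaction was lost in 10 of 20 alternatives. Over all 20 its adjusted p ranged from 0.00349 to 0.103 and its value from 1.74 to 2.89. The adipocyte markers were highest in the same group, with sums of 34.4 FPKM in replicate 1 and 97.4 in replicate 3 of PPARγ/+_5d, where Igfbp3 was 72.1 and 72.9 FPKM. The part of the adipocyte markers in the Igfbp3 level was not tested.

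Igfbp4, an inhibitor of IGF action that PAPP-A cleaves, was the scarcest binding protein on 0d. It had 0.362, 0.422 and 0.303 FPKM in WT_0d, and 4.21, 6.27 and 4.41 FPKM in WT_5d. PPARγ/+ cells had 0.223, 0.321 and 0.446 FPKM on 0d, which are 24 to 43 fragments, and 4.01, 3.98 and 4.77 FPKM on 5d. The days lay far apart and the cell types overlapped on both days. The rise was 3.44 ± 0.21 in WT cells (adjusted p = 2.2e-04) and 3.37 ± 0.21 in PPARγ/+ cells (adjusted p = 6.42e-05) on the log2 scale, with an interaction of -0.07 ± 0.30 whose sign changed when some single libraries were left out.

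Igfbp6, which prefers IGF2, and Igfbp7 were abundant in every library and passed no call. Igfbp6 had 183, 205 and 227 FPKM in WT_0d, 141, 173 and 179 in WT_5d, 233, 209 and 201 in PPARγ/+_0d and 166, 178 and 175 in PPARγ/+_5d. The libraries on 5d lay below those on 0d in both cell types, by a log2 difference of -0.32 ± 0.13 in WT cells (adjusted p = 0.107) and -0.31 ± 0.07 in PPARγ/+ cells (adjusted p = 0.0135). Igfbp7 had 113, 159 and 133 FPKM in WT_0d and 205, 211 and 200.1 FPKM in WT_5d. PPARγ/+ cells had 182, 223 and 239 FPKM on 0d and 224, 246 and 257 FPKM on 5d. WT_0d was below the other 3 groups, without overlap. The WT difference over the days was 0.62 ± 0.13 (adjusted p = 0.0135), and PPARγ/+ against WT on 0d was 0.67 ± 0.13 (adjusted p = 0.0145), both below the 2-fold limit. The exons of Igfbp7 share 85 bases (7.03% of its exonic bases) with those of Polr2b on the other strand, and the library kit does not mark strand.

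**Figure D3:**
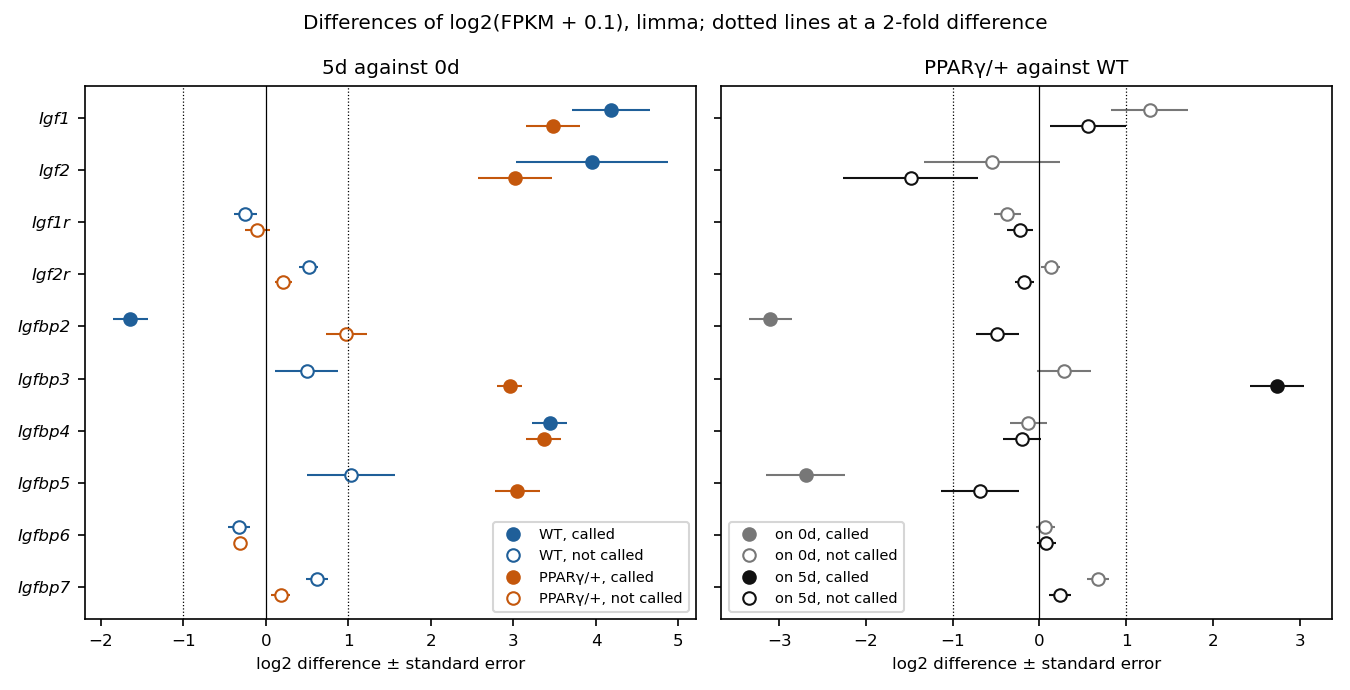
Log2 differences of the 10 members with their standard errors (x axes) from limma fits of log2(FPKM + 0.1), with 5d against 0d in the left panel and PPARγ/+ against WT in the right one. Filled points were called and open points were not, and dotted lines mark a 2-fold difference. Igfbp2 stood on opposite sides of 0 for the day difference, at -1.64 in WT and 0.97 in PPARγ/+ cells.

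FPKM are per length, so the levels of the members can be set side by side within a library, except that annotated lengths gave no whole fragments for the receptors. The shortest length that gave them was 4489 bases for Igf1r, against 16791 annotated exonic bases, so its place is uncertain, and for Igf2r it was 9438 against 9308. The RNA of the 6 binding proteins summed to 551 ± 119 FPKM in WT_0d, 618 ± 83.5 in WT_5d, 465 ± 18.5 in PPARγ/+_0d and 629 ± 20.7 in PPARγ/+_5d (SD, n = 3), whereas neither ligand exceeded 40.3 FPKM in any library. Within that sum the makeup differed between groups more than the sum did. Igfbp6 and Igfbp7 made up 38.2% ± 8.27 and 24.7% ± 2.17 of it in WT_0d and 46.3% ± 5.46 and 46.1% ± 4.75 in PPARγ/+_0d. Igfbp2 and Igfbp5 together with them nearly completed the pool in WT_0d, at 17.3% ± 2.16 and 18.4% ± 8.39, but were 2.39% ± 0.68 and 3.21% ± 1.28 in PPARγ/+_0d. On 5d Igfbp5 was 32.0% ± 9.54 of the pool in WT and 18.8% ± 1.14 in PPARγ/+ cells. WT_5d replicate 3 had an Igfbp5 share of 20.97%, against 37.6% and 37.4% in the other WT libraries on 5d. Igfbp3 was 1.82% ± 0.85 in WT_5d and 11.1% ± 0.90 in PPARγ/+_5d, where it exceeded Igfbp2 at 3.41% ± 0.54. Igfbp4 stayed below 1% in every library. These shares are descriptions with no test, and they count RNA, not protein.

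**Figure D4:**
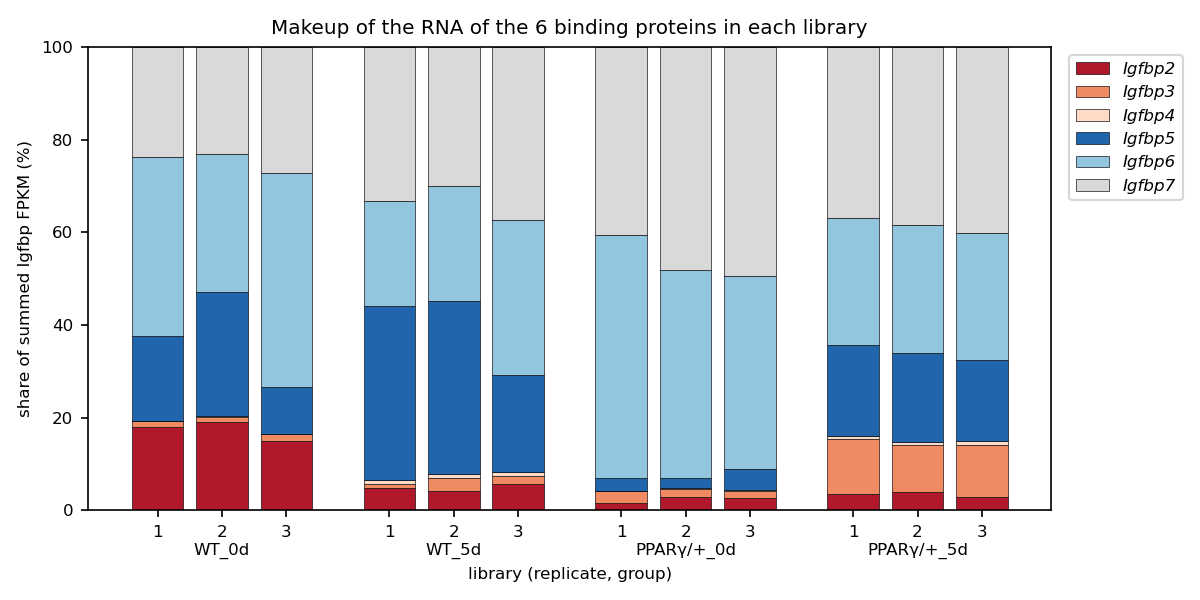
Share of each of the 6 binding proteins in their summed FPKM (y axis, percent) in the 12 libraries (x axis, by group and replicate). Igfbp5 and Igfbp2 filled more of the pool in WT_0d than in PPARγ/+_0d, and Igfbp3 took 10.2% to 11.9% in the PPARγ/+_5d libraries and at most 2.71% in any other.

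In order of mean level, Igfbp6, Igfbp7, Igfbp5 and Igfbp2 led in WT_0d, where Igfbp6 was clear of Igfbp7 and the other neighbours among them overlapped. In WT_5d Igfbp7, Igfbp5 and Igfbp6 led and overlapped as neighbours in that order, and Igf2 and Igf1 followed behind Igfbp2. In PPARγ/+_0d Igfbp7 and Igfbp6 overlapped at the top, far above Igfbp5, Igf2r and Igfbp2, which overlapped one another as neighbours. In PPARγ/+_5d the order was Igfbp7, Igfbp6, Igfbp5, Igfbp3, Igf1, Igfbp2, Igf2r, Igf2, Igf1r and Igfbp4, and each member was clear of the next except Igf1r and Igfbp4, with the place of Igf1r uncertain in all groups. Igf1 stood above Igf2 in PPARγ/+_5d without overlap, and in WT_5d the ligands overlapped.

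Other genes that act on the ligands or binding proteins outside the cell or on their RNA formed a list of 24, of which 18 were tested. From 0d to 5d, 9 of the 18 rose and 1 fell in WT cells, and 8 rose and 1 fell in PPARγ/+ cells, beside 16.5% and 15.2% of all genes. Its median log2 difference was 0.96 for WT and 0.85 for PPARγ/+ cells, where all genes had -0.08 and -0.10. H19, the noncoding RNA next to Igf2 in the same imprinted region, rose by 3.14 ± 0.81 in WT cells (adjusted p = 0.0245), to a mean of 1339.6 FPKM, and by 3.71 ± 0.30 in PPARγ/+ cells (adjusted p = 1.47e-04), to 426 FPKM. H19 spread in WT_5d from 370 to 2306 FPKM. Pappa2, a protease of IGFBP5 and IGFBP3, rose by 2.77 ± 0.44 in WT cells, to 1.51 FPKM, and by 2.91 ± 0.30 in PPARγ/+ cells, to 2.88 FPKM. C1s1, a complement protease that can cleave IGFBP5, rose by 2.93 ± 0.49 in WT cells, from 24.2 ± 15.1 to 177 ± 78.5 FPKM, and by 2.35 ± 0.21 in PPARγ/+ cells, from 48.0 ± 16.3 to 238 ± 6.09 FPKM (adjusted p = 2.19e-04). Ncl, the RNA-binding nucleolin, fell by 1.12 ± 0.08 in WT cells, from 81.0 ± 5.21 to 37.1 ± 1.66 FPKM, and its difference in PPARγ/+ cells, -0.84 ± 0.10, was below the 2-fold limit.

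Igfals, the acid-labile subunit that joins IGF and IGFBP3 in a ternary complex, rose by 2.84 ± 0.18 in PPARγ/+ cells, from 0.0855 ± 0.0122 to 1.23 ± 0.13 FPKM, and by 1.77 ± 0.38 in WT cells (adjusted p = 0.0135), from 0.0517 ± 0.0450 FPKM. Every library on 0d had less Igfals than the 0.1 FPKM that is added before the log2 scale. On 5d Igfals was higher in PPARγ/+ than in WT cells by 1.41 ± 0.31 (adjusted p = 0.0479), where WT cells had 0.421 ± 0.172 FPKM, and it was the 1 of the 18 genes that was called on that day, beside 1.10% of all genes. That call lay just under the limit of 0.05, and it was not recomputed under the alternatives. On 0d, 2 of the 18 genes were lower in PPARγ/+ cells, beside 1.96% of all genes called. One was Igf2bp2, which binds the Igf2 transcript, at 2.16 ± 0.73 against 5.72 ± 1.12 FPKM (log2 difference -1.40 ± 0.24, adjusted p = 0.00874). The other was Pappa, the protease of IGFBP4, at 0.0715 ± 0.0212 against 0.348 ± 0.0304 FPKM, which lies outside the naming rule and was chosen after its values were seen. limma called no interaction in the list, beside 0.760% of all genes. An unadjusted value under 0.05 was found for 5 of its 18 tested genes, and the share of all genes at that cut was not computed. Igfbp1 and Igfbpl1 were listed at 0 in every library.

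Genes of signaling behind the receptor, from the insulin receptor and its adaptors to AKT, mTOR and MAPK, formed a list of 50, of which 47 were tested. From 0d to 5d, 3 of the 47 rose and 1 fell in WT cells, and 3 rose and 1 fell in PPARγ/+ cells, beside 16.5% and 15.2% of all genes. The medians were -0.03 and -0.19 on the log2 scale. On 0d Grb14, an adaptor that inhibits insulin receptor signaling, was higher in PPARγ/+ cells by 1.002 ± 0.25 (adjusted p = 0.0409), with 0.607 ± 0.225 against 0.242 ± 0.0103 FPKM. It was the 1 gene of the 47 called on 0d, beside 1.96% of all genes. On 5d limma called none, beside 1.10% of all genes called, and it called no interaction, beside 0.760% of all genes. An unadjusted value under 0.05 was found for 11 of the 47 genes on 5d and for 3 of 47 in the interaction. The share of all genes at that looser cut was not computed, so these counts cannot be set against 1.10% or 0.760%.

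For each member the genes with the most similar pattern over the 12 libraries were taken by Pearson's r on log2(FPKM + 0.1) among 12400 genes, as a description of libraries that share their groups. Igf1 was closest to Slc25a35 (r = 0.99), Angpt4 and Bgn, and Igf2 to Stac3 (0.98), Mustn1 and Csrp3. With the group means removed, Igf2 and Csrp3, a muscle LIM protein, still had r = 0.97. Igfbp5 was closest to Mgam (0.99), Ntn1 and Agap1, and Igfbp4 to Sectm1a (0.99), Htra1 and Adamts2. Igfbp3 was closest to Gemin8 (0.95), Lhx8 and Vit. Igfbp2 was closest to Stmn4 (0.94) and Dusp16, and with the group means removed r with Stmn4 was 0.06, so that this likeness lay in the group means. Igfbp6 was closest to Fancl (0.99), Rnaseh2a and Sec24d. Among the genes near Igfbp7 were Igsf10 (0.94) and Eid1 (0.93). The receptors had looser neighbours, Igf1r with Klhl11 (0.89), Lpgat1 and Lmbrd2, and Igf2r with Cdc37l1 (0.94), Eda2r and Malat1.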

How the data were processed

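RNA libraries of C2C12 cells (4 groups of 3) were sequenced as read pairs. After trimming (Trim Galore), alignment (STAR) and gene counting (HTSeq), the authors deposited FPKM per gene. The paper names GRCm38 with Ensembl genes, whereas the submitters' processing notes name mm9, so positions here are those of GENCODE on GRCm38. A second deposited table holds log2(FPKM + 1) of the same values (largest difference 5.3e-14) and entered no test. No library column was left out, and any 2 libraries differed at 21594 genes or more.

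Tests used limma 3.58.1 in R 4.3.3, with empirical Bayes moderation and a trend, on log2(FPKM + 0.1) of 18023 genes, each reaching 0.1 FPKM in 3 or more libraries. The days were compared within each cell type on its own 6 libraries, and the cell types and the interaction over all 12. Adjusted p-values are Benjamini-Hochberg values over all genes tested. The functions were tested on simulated data. Tables and motifs were handled with Python 3.11.15, numpy 2.4.6, pandas 2.3.3 and matplotlib 3.10.9. Fragments were recovered as FPKM times exonic length times the mapped read pairs. They came out whole within 0.02 for 21320 of 26977 genes, 8 of the members among them. The lengths behind the fragments of Igf1r and Igf2r were inferred, so no fragments are given for them. Fragments set depth only, and counting error is not included in the errors printed.

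The members and gene lists were chosen with earlier results of these data known. Named genes are all members, list genes with a called interaction, the 3 list genes that rose and the 3 that fell most among those called with a group mean of at least 1 FPKM (the IGF lists only, as marker lists are given by their sums), and the 3 nearest genes of each member. Some of these nearest genes are not reported here. Alternatives were other pseudocounts, filters, scalings, libraries in the fit, array weights, a replicate block, adjusted p-values for the days, and leaving out each library.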

Additional observations from a re-analysis of the deposited data

Results flagged for a closer look

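For Igfbp2 and for Igfbp3 the day difference depended on the cell type, by the interaction term of the fit over 12 libraries. For Igfbp2 the PPARγ/+ change less the WT change was 2.61 ± 0.35 on the log2 scale (SE, limma adjusted p = 0.011). All 3 WT libraries on 5d were below all 3 on 0d, and all 3 PPARγ/+ libraries on 5d were above all 3 on 0d. Over 20 alternatives the value lay between 2.33 and 2.79, and the adjusted p was at most 0.0346. The paper already lists Igfbp2, from these libraries, among genes that fell in WT and rose in PPARγ/+ cells. Its own fit put both changes past the 2-fold limit, and it reports qRT-PCR for the gene.

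For Igfbp3 the PPARγ/+ change less the WT change was 2.46 ± 0.44 (adjusted p = 0.0337). All 3 PPARγ/+ libraries on 5d were above those on 0d, and the WT days overlapped. The value stayed positive in the 20 alternatives, and its call was lost in 10 of them.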

How the results depend on the processing

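Over the alternatives, 758 of the 800 recomputed log2 differences of members kept their direction and their side of the threshold, 14 newly passed it, 12 no longer did and 16 changed sign. The direction was fixed in part of the 800. Other filters, the replicate block, 6 or 12 libraries in the fit and adjusted p-values do not alter the difference itself. Differences that were not called and stayed so are also among the 758. The number of members called moved by a large step in 13 of 80 recomputations, and smaller changes, such as 2 to 3, are not among these 13. For the interaction it was 1 with no filter and 1 with the replicate block, where Igfbp3 was lost, 1 to 2 when single libraries were left out, and 3 with array weights, which added Igfbp7 (adjusted p = 0.0407). On 0d it was 1 with the 6 libraries of the day alone, where Igfbp5 was lost (adjusted p = 0.0547), and 3 with array weights and without WT_0d replicate 2, where Igf1 was added (1.38 and 1.81, adjusted p = 0.0446 and 0.0269). On 5d it was 0 with the 6 libraries of the day (Igfbp3, adjusted p = 0.0798; 28 genes of all were called by limma there) and 3 with array weights, which added Igf2 (-1.88) and Igfbp5 (-1.12). The estimation of the array weights stopped before its tolerance. The cause of these changes was not tested.

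Sign changes concerned differences near 0 or with overlapping groups. The PPARγ/+ day difference of Igf1r was 0.0249 under median-ratio scaling and 0.0049 under quantile normalization, and the interaction of Igfbp6 was -0.0050 under quantile normalization. Leaving out single libraries gave ranges of -0.0938 to 0.0937 for the interaction of Igfbp6, -0.26 to 0.12 for Igfbp4 and -0.0050 to 0.23 for Igf1r, -1.28 to 0.32 for Igf2 on 0d, -0.32 to 0.0609 for Igfbp4 on 0d, -0.0128 to 0.14 for Igfbp6 on 0d and -0.0269 to 0.15 for Igfbp6 on 5d. The share of Igfbp6 in PPARγ/+_5d was 27.2% under quantile normalization instead of 27.5%.

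Counts over all genes moved more. A pseudocount of 1 gave 1441 and 1241 genes between the days in WT and PPARγ/+ cells, with 120 called on 0d and 95 on 5d for PPARγ/+ against WT, instead of 2970, 2735, 353 and 199. A filter at FPKM 1 gave 1806 in PPARγ/+ cells between the days and 93 on 5d. Array weights gave 555 on 0d, 1363 on 5d and 2070 for the interaction, instead of 137. Leaving out a library gave 78 to 796 genes on 5d and 42 to 527 for the interaction, the highest of both without WT_5d replicate 3, and 180 to 325 on 0d. Median-ratio scaling moved the median of all genes from -0.08 to 0.02 between the days in WT cells and from -0.10 to 0.02 in PPARγ/+ cells.

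Replicate numbers are shared between groups. The deviations of libraries with the same number correlated between -0.0678 and 0.0834, and those of libraries with other numbers between -0.1216 and 0.1025. Correlations over all genes cannot decide whether libraries with the same number were handled together. With the replicate block 61 genes were called for the interaction, and the adjusted p of Igfbp3 was 0.0654. Igfbp5 was called in WT cells over the days at 1.03, with a standard error of 0.20 instead of 0.53. With 3 libraries a group, depth limits only Igfbp4 and the ligands on 0d, which rest on as few as 24 and 51 fragments.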
